A study of Mus musculus with 3 samples.

Results

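The tumour necrosis factor (TNF) superfamily pairs trimeric ligands, most of them made as membrane proteins that can be shed, with receptors that carry cysteine-rich repeats outside the cell. Receptors with a death domain can start cell death, and most of the others bind TRAF adaptors and switch on NF-kappaB. In bone marrow the family is known for the control of osteoclasts by RANK ligand, for the survival of B cells, and for the response of stroma to inflammation. The genes described here are those whose symbol names a ligand or receptor of the family (Tnfsf and Tnfrsf genes, Tnf, Lta, Ltb, Ltbr, Cd40, Cd40lg, Cd27, Cd70, Fas, Fasl, Eda, Edar and Eda2r) and that have a probe set annotated to that gene alone. They were 42 of 19938 genes, 16 ligands and 26 receptors, each measured by 1 probe set. One further probe set carries Tnfsf12 and Tnfsf13 together, and those ligands were not analysed here.

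The levels come from 3 single-colour arrays of sorted mouse bone marrow stroma from tibia, femur and pelvis at baseline. For 2 arrays, CXCL12-abundant reticular (CAR) cells were sorted from 2 CXCL12-GFP knock-in mice, in which GFP marks the cells that use the Cxcl12 gene. The other array holds PDGFRa+ Sca+ CD45- lineage- stromal cells (PaS), combined from 3 mice that were Prx1-Cre Rosa26Ai9/+ Cxcl12gfp/+. Both groups carry a GFP allele at Cxcl12. The Prx1-Cre driver acts in limb mesenchyme and Ai9 is a red reporter of Cre. The sources used here do not state strain background, age or the zygosity of the CAR mice. Genotype and cell type differ together, so they cannot be told apart, and the PaS side has no replicate.

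Defining markers were read before the family. Cxcl12 stood at a log2 intensity of 10.94 and 11.11 on the CAR arrays and 7.76 on the third. Pdgfra, part of the PaS gate, was at 7.52 and 7.97 in CAR cells and only 4.33 on the third array, and Ptprc, which encodes the excluded CD45, was at 5.11 and 5.01 against 8.27. The levels of these gate genes go against the label, so the sample is called the array labelled PaS. Other genes of Sca-1+ fibroblasts ran as the label says: Dpt was at 2.60 and 2.27 in CAR cells against 8.10, Thy1 at 3.56 and 3.69 against 7.67 and Cd34 at 2.53 and 2.23 against 4.73 (limma adjusted p from 0.0081 to 0.0182). That list held 8 genes, and 6 were measured. Ly6a, which encodes Sca-1 itself, and Ly6c1 were not. Of the 6, 3 were called higher on the array labelled PaS, and Pdgfra and Prrx1 higher in CAR cells. Thy1 also stands in the list of T and NK genes, of which 3 of 11 were called lower in CAR cells, so its level does not mark fibroblasts alone. All 12 general blood cell markers were below the array labelled PaS on both CAR arrays, 9 of them past the test. Their summed linear intensity was 357 and 440 on the CAR arrays and 2450 on the array labelled PaS. Summed intensities were 3396, 3151 and 18240 for 13 neutrophil genes, 648, 614 and 3200 for 12 macrophage genes, 161, 128 and 622 for 11 B lymphoid genes, and 109, 93.8 and 297 for 10 endothelial genes, in the order CAR array 1, CAR array 2 and array labelled PaS. Those of 10 genes of CAR and leptin receptor-positive stroma were 9473, 10760 and 911. Array values are never 0, and no detection calls were used, so no marker can be called absent. The part of these other cells in the differences below was not tested, and fewer cells of a type and less RNA per cell cannot be told apart in such samples.

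**Figure D1:**
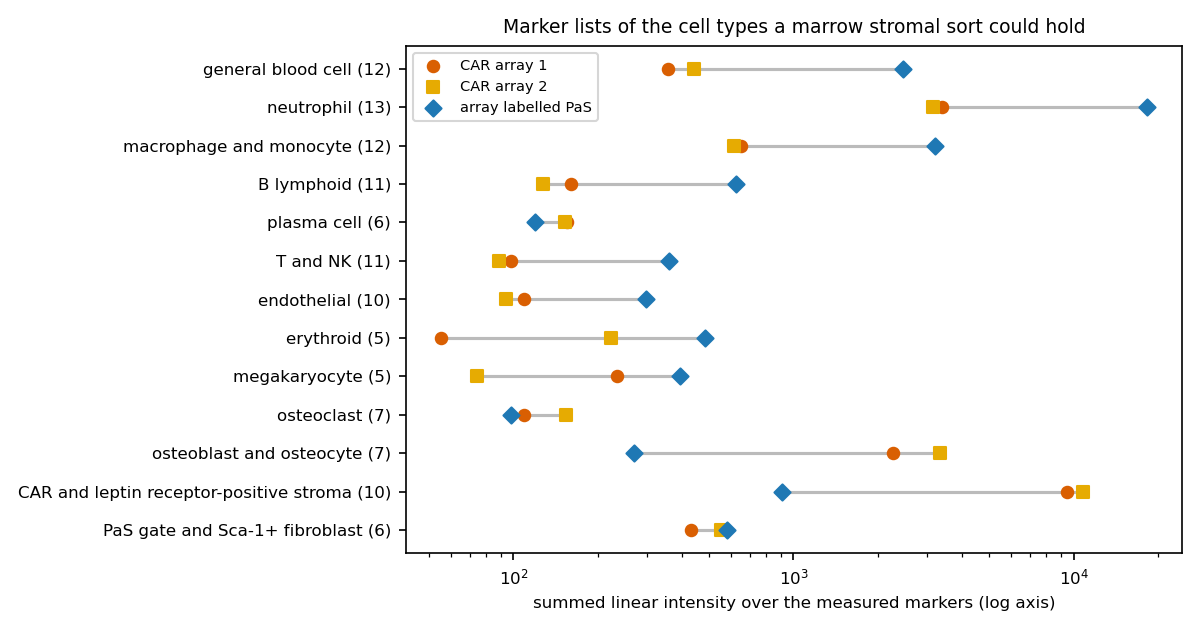
Summed linear intensity (log axis) of the measured markers of each cell type on CAR array 1 (circles), CAR array 2 (squares) and the array labelled PaS (diamonds); the number of measured genes stands in brackets. The general blood cell, neutrophil, macrophage, B lymphoid, T and NK and endothelial lists sat highest on the array labelled PaS. The sums of the plasma cell and osteoclast lists sat lowest there, but most of their genes did not. Both CAR arrays lay below it for 4 of 6 plasma cell genes (2 above) and 4 of 7 osteoclast genes (3 above). The list of CAR and leptin receptor-positive stroma sat highest on the CAR arrays.

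Of the 42 family genes, the receptors Tnfrsf19, Tnfrsf1a and Tnfrsf1b and the ligand Eda rose in CAR cells relative to the array labelled PaS (4 genes), while the receptor Tnfrsf26 and the ligand Tnfsf15 fell (2 genes). The test was limma's, with p-values adjusted by Benjamini and Hochberg's method across the 19938 genes and called under 0.05. The called share of the family, 14.3%, was near that of all genes, 15.0%. By direction it was 9.52% higher against 8.56% of all genes, and 4.76% lower against 6.42%. A count by size, with no test, put 6 family genes at least 2-fold higher in both CAR arrays (14.3%, against 10.9% of all genes) and 2 at least 2-fold lower (4.76% against 8.92%). The median log2 difference, CAR minus PaS, was −0.28 over the family and −0.10 over all genes, −0.01 for receptors and −0.43 for ligands. These medians go with level, but level here is the mean over 2 CAR arrays and 1 array labelled PaS. A gene high in CAR cells is thus more likely to count as bright, so the split is partly tied to direction. Among genes with a mean below the median level the median difference was −0.53 for 13 ligands, −0.34 for 26 family genes and −0.40 for all genes. Among genes at or above that level it was 0.79 for 16 family genes and 0.37 for all genes. Both CAR arrays lay above the array labelled PaS for 13 family genes (31.0%, against 37.4% of all genes), both below for 23 (54.8% against 46.8%), and the groups overlapped for 6. After quantile normalization 6 family genes were called higher (14.3%, against 13.2% of all genes) and 5 lower (11.9%, against 14.2% of all genes). With 16 added to each intensity before the log, which damps dim values, limma called 0 family genes and 0 of all genes, although 14 family genes and 5785 of all genes had an unadjusted p under 0.05 there; the adjusted p of the 6 genes above then lay between 0.0539 and 0.147.

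**Figure D2:**
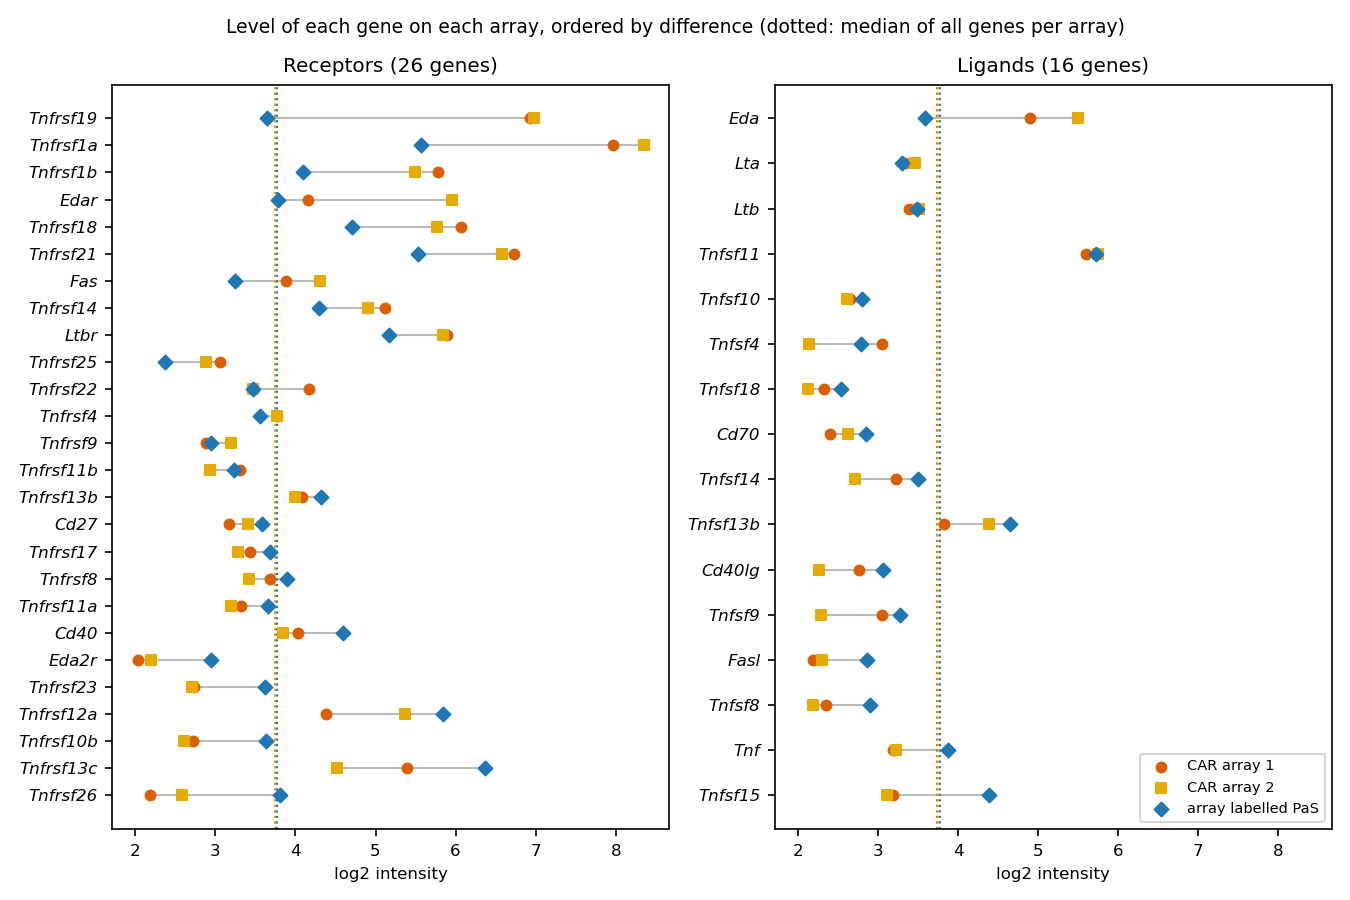
Log2 intensity of the 26 receptors and the 16 ligands on each array (horizontal axis), ordered by the difference between groups; dotted lines are the medians of all genes per array. Tnfrsf19 and Tnfrsf1a show the widest gaps, and 11 of the 16 ligands lay below the median of all genes on all 3 arrays.

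Many members were dim. On all 3 arrays 20 of the 42 lay below the array's median over all genes (3.74, 3.75 and 3.77), among them 11 of the 16 ligands and 9 of the 26 receptors. The 5th percentile of all genes was 1.87 and 1.69 on the CAR arrays and 2.40 on the array labelled PaS. The interquartile range over genes was 1.96 and 2.28 on the CAR arrays and 1.35 on the third, and quantile normalization makes these ranges equal. Both genes called lower were still called after it, with differences of −1.39 for Tnfsf15 and −1.27 for Tnfrsf26 (limma adjusted p = 0.00809 and 0.0212). All 4 genes called higher had a mean over the arrays above the median level, and both genes called lower had a mean below it. That mean holds 2 CAR arrays and 1 array labelled PaS, so it is tied to the direction of a difference. On the array labelled PaS alone, Tnfrsf19 and Eda lay below the median, at 3.65 and 3.59, and Tnfrsf1a and Tnfrsf1b above it. Tnfsf15 and Tnfrsf26 also lay above it there, at 4.39 and 3.81.

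Tnfrsf19 showed the largest difference of the family. It encodes an orphan receptor, also called TROY, that lacks a death domain. Its log2 level was 6.93 and 6.98 on the CAR arrays and 3.65 on the array labelled PaS. The CAR arrays were nearly equal, and the third array lay below its own median over all genes. CAR cells had 9.91-fold more Tnfrsf19 signal (log2 difference 3.31 ± 0.28, SE; limma adjusted p = 0.0107). Without detection calls, a value below the array's median cannot be told from background, so the size of this fold is uncertain.

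The receptors for TNF were higher in CAR cells, while the level of their ligand was not. Tnfrsf1a, the widely expressed death domain receptor that carries most responses to soluble TNF, was at 7.97 and 8.35 on the CAR arrays and 5.57 on the array labelled PaS. All 3 values lay above the medians of their arrays, and the gap between groups was wider than that between the CAR arrays. Its difference was 6.04-fold (2.60 ± 0.31; limma adjusted p = 0.0164). Tnfrsf1b, the receptor without a death domain that responds best to membrane-bound TNF, was at 5.78 and 5.50 against 4.09, a 2.93-fold difference (1.55 ± 0.30; limma adjusted p = 0.0348). Both CAR arrays lay above the third for Tnfrsf1b too, as for 37.4% of all genes. Tnf itself was dim, at 3.19 and 3.23 on the CAR arrays and 3.88 on the array labelled PaS, and did not pass (−0.67, 95% interval −1.38 to 0.04; limma adjusted p = 0.159). Lta, which encodes the other ligand of these receptors, was at 3.34 and 3.47 against 3.30 (0.11, interval −0.61 to 0.83; limma adjusted p = 0.810).

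The ectodysplasin genes, which are known from the development of hair, teeth and sweat glands, differed among themselves. The ligand Eda was 3.06-fold higher in CAR cells, at 4.90 and 5.50 against 3.59 (1.61 ± 0.36; limma adjusted p = 0.0451). The lower value was under that array's median, so the size of this fold is uncertain too. Its receptor Edar, which has a death domain, read 4.16 on CAR array 1 and 5.95 on CAR array 2 against 3.78 on the array labelled PaS. The CAR arrays were thus far apart, with an SD of 1.27 that was the largest of the family, and the difference of 1.28 did not pass (interval −0.59 to 3.14; limma adjusted p = 0.276). Eda2r, the receptor for the other splice form of ectodysplasin, was at 2.03 and 2.20 against 2.94, all low (−0.83, interval −1.55 to −0.11; limma adjusted p = 0.108). Edaradd, the adaptor of Edar, was at 2.87 and 2.88 against 3.61 (limma adjusted p = 0.131).

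The bases before the RefSeq start of the 4 genes called higher are printed to show what their promoters hold in common and where they differ; RefSeq (GRCm38.p6) lists 2 starts for Tnfrsf19. Each run covers the 250 bases before a start, read 5′ to 3′ on the strand of the gene, and capitals mark matches to GGGCGG, the GC box bound by Sp1 factors, on either strand. The runs lie at chr14:61046856-61047105 and chr14:61037988-61038237 (both minus strand), chr6:125349473-125349722 (plus), chrX:99975356-99975605 (plus) and chr4:145246871-145247120 (minus).
Tnfrsf19, upstream start: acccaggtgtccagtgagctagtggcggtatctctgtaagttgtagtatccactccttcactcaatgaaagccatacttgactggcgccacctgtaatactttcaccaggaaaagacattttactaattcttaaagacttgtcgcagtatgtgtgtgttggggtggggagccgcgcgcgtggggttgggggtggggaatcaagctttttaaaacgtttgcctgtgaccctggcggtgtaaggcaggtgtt
Tnfrsf19, downstream start: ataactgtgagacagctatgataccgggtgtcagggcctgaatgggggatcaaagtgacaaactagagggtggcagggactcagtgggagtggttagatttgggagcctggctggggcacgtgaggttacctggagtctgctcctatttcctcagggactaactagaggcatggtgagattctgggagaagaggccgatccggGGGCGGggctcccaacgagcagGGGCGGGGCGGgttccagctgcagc
Tnfrsf1a: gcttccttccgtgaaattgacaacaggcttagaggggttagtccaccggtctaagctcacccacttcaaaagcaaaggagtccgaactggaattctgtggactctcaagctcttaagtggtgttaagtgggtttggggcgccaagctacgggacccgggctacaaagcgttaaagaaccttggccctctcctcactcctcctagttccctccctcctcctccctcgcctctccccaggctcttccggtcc
Eda: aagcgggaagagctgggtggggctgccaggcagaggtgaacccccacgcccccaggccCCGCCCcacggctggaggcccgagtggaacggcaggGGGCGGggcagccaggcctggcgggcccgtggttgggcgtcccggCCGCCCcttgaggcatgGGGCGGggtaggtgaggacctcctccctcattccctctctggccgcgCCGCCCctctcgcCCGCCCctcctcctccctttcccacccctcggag
Tnfrsf1b: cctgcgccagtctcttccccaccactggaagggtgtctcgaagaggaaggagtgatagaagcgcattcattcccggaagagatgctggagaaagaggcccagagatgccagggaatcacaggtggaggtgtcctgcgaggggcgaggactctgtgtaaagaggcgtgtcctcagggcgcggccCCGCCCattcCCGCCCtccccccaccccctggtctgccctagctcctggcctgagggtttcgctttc
The run of Eda held 6 GC boxes, that of the downstream start of Tnfrsf19 held 3 of which 2 share a base, and that of Tnfrsf1b held 2. The runs of Tnfrsf1a and of the upstream start of Tnfrsf19 held none. GC content was 55.6% at Tnfrsf1a, 59.2% at the downstream start of Tnfrsf19, 62.8% at Tnfrsf1b and 75.6% at Eda. Over 32851 promoters of the same length, 32.7% held the GC box. None of the 5 runs held the NF-kappaB consensus (7.25% of all promoters), the AP-1 motif TGANTCA (6.75%) or the palindromic EBF consensus (0.779%), searched on both strands; that says only that these letters are not in these windows. Of the 42 members 33 had such a promoter in the RefSeq table, and the NF-kappaB consensus was found in 4 of them, Ltb, Tnfrsf25, Tnfrsf8 and Tnfrsf9, none of which passed the test.

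**Figure D3:**
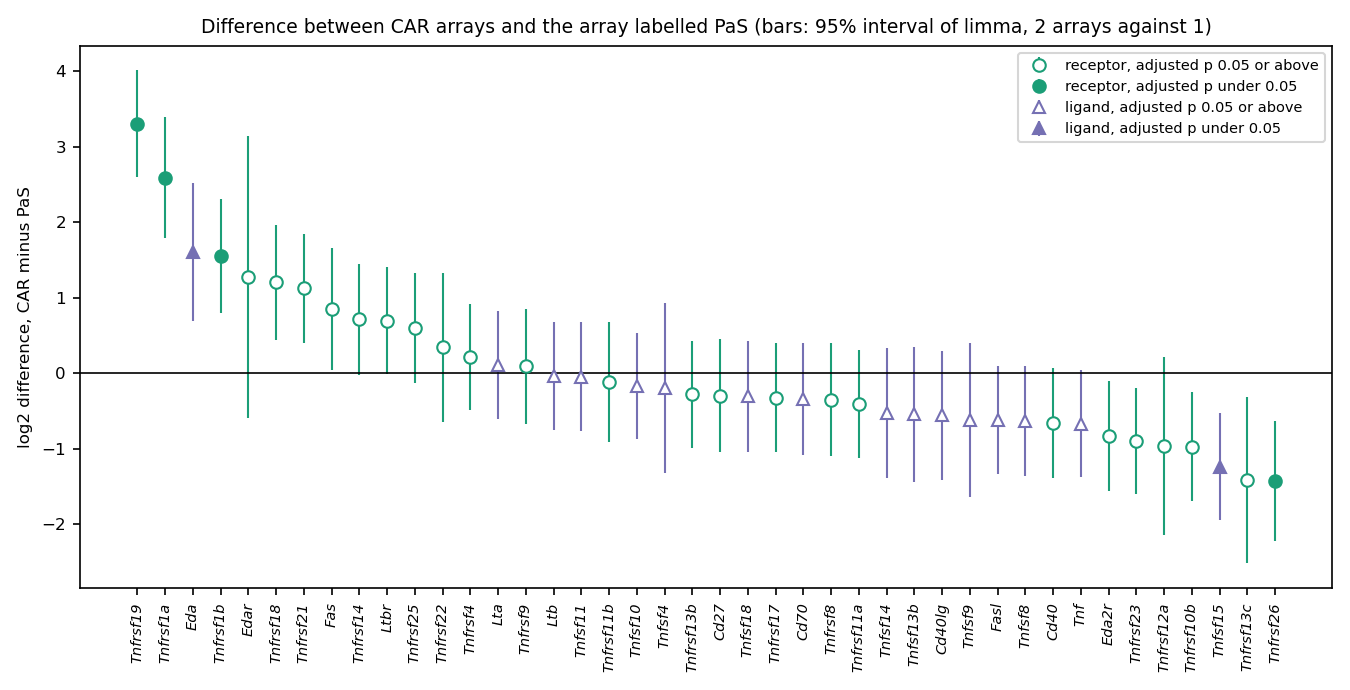
Log2 difference, CAR minus the array labelled PaS, of the 42 genes in falling order, with limma's 95% interval for 2 arrays against 1; circles are receptors, triangles ligands, and filled symbols passed the adjusted threshold. The 4 filled symbols at the left run from 1.55 to 3.31 and the 2 at the right from −1.24 to −1.42.

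The 2 genes called lower were both dim in CAR cells. Tnfsf15, a ligand of endothelial and myeloid cells, was at 3.19 and 3.11 in CAR cells and 4.39 on the third array, a 2.36-fold difference (−1.24 ± 0.28; limma adjusted p = 0.0462). Its death domain receptor Tnfrsf25 leaned the other way at a low level, with 3.06 and 2.89 against 2.37 (0.61, interval −0.12 to 1.33; limma adjusted p = 0.199), and passed after quantile normalization (1.13; limma adjusted p = 0.0176). Summed endothelial and macrophage markers were also higher on the array labelled PaS, as given above, and their part in the value of Tnfsf15 was not tested. Tnfrsf26, a mouse receptor whose gene lies beside the TRAIL decoy receptor genes Tnfrsf22 and Tnfrsf23, was at 2.19 and 2.58 against 3.81 (−1.42 ± 0.31; limma adjusted p = 0.0444). Tnfrsf23 was at 2.73 and 2.71 against 3.61 (limma adjusted p = 0.0880) and Tnfrsf22 at 4.18 and 3.46 against 3.47, where the groups overlapped. Whether signal is shared between the probe sets of these neighbours was not tested.

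The RANK system, through which stroma and osteoblasts drive osteoclast formation, showed no difference past the test. Tnfsf11, which encodes RANK ligand, read 5.60 and 5.75 on the CAR arrays and 5.72 on the array labelled PaS. The single value fell between the CAR arrays, above the medians of all genes on each array. The interval of the difference, −0.77 to 0.68, leaves room for about the same change either way, and the estimate moved from −0.04 to −0.64 after quantile normalization (limma adjusted p = 0.929 and 0.105). Tnfrsf11b, which encodes osteoprotegerin, the soluble decoy that blocks RANK ligand, was at 3.31 and 2.94 against 3.24 and lay below the medians on all arrays. The receptor Tnfrsf11a, which sits on osteoclast precursors, was at 3.32 and 3.19 against 3.66 (−0.40, interval −1.12 to 0.31). Of 12 osteoclast genes downstream of the receptor, 0 were called by limma in either direction, against 15.0% of all genes. An unadjusted p under 0.05 was reached by 5 of the 12 and by 7004 of all 19938 genes in limma. After quantile normalization 1 was called higher and 5 lower, where 13.2% and 14.2% of all genes were. Centring or a robust prior called 1 in each direction (all genes: 12.3% and 9.59%, or 10.9% and 8.92%). Atp6v0d2 was also called lower with an intensity trend, and Ctsk higher among genes of at least median level. Ctsk came nearest among those higher in CAR cells, at 5.75 and 6.72 against 4.33 (limma adjusted p = 0.0523), and Atp6v0d2 among those lower, at 2.40 and 2.19 against 3.51 (limma adjusted p = 0.0515).

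Receptors of the lymphotoxin and LIGHT ligands leaned toward CAR cells without passing. Ltbr, which stromal organiser cells use to build lymphoid tissue, was at 5.90 and 5.85 against 5.17 (0.70, interval −0.01 to 1.41; limma adjusted p = 0.146), and 0.14 remained after quantile normalization. Tnfrsf14, a receptor of LIGHT, was at 5.12 and 4.91 against 4.30 (0.72, interval −0.02 to 1.45; limma adjusted p = 0.150). For both receptors both CAR arrays lay above the third, as for 37.4% of all genes. The ligands stayed low: Ltb was at 3.39 and 3.51 against 3.48, and Tnfsf14, which encodes LIGHT, at 3.23 and 2.71 against 3.50.

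The B cell survival system was read next. Its ligand Tnfsf13b, which encodes BAFF, was at 3.82 and 4.39 on the CAR arrays and 4.65 on the array labelled PaS (−0.54, interval −1.43 to 0.35; limma adjusted p = 0.330). Tnfrsf13c, the BAFF receptor of B cells, was at 5.39 and 4.52 against 6.37. The CAR arrays lay apart, and the difference of −1.41 did not pass (interval −2.51 to −0.32; limma adjusted p = 0.0848); it passed after centring (limma adjusted p = 0.0463) and after quantile normalization (−1.94; limma adjusted p = 0.0124). All but 1 of the 11 B lymphoid markers leaned the same way and 6 passed, Rag1 at 2.97 and 3.56 against 7.22 and Cd79b at 4.39 and 4.67 against 7.59; their part in the value of Tnfrsf13c was not tested. Tnfrsf13b, the receptor TACI, was at 4.08 and 4.0 against 4.31, and Tnfrsf17, the plasma cell receptor BCMA, at 3.44 and 3.28 against 3.68.

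Among the remaining receptors, Tnfrsf18 and Tnfrsf21 were at least 2-fold higher in both CAR arrays but missed the threshold. Tnfrsf18, the costimulatory receptor GITR, was at 6.06 and 5.77 against 4.71 (1.20 ± 0.30; limma adjusted p = 0.0552), and its ligand Tnfsf18 was low, at 2.33 and 2.13 against 2.54. Tnfrsf21, a death domain receptor known from neurons and lymphocytes, was at 6.73 and 6.57 against 5.53 (1.13 ± 0.28; limma adjusted p = 0.0572). Both passed after centring (limma adjusted p = 0.0310 and 0.0350), and their differences shrank to 0.70 and 0.51 after quantile normalization.

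The death receptor Fas was at 3.89 and 4.30 on the CAR arrays and 3.24 on the array labelled PaS (0.85, interval 0.04 to 1.67; limma adjusted p = 0.129; after quantile normalization 1.03 and limma adjusted p = 0.0300), and its ligand Fasl, made by T and NK cells, was at 2.19 and 2.30 against 2.87. Tnfrsf10b, the TRAIL receptor that signals death, was at 2.72 and 2.60 against 3.63 (−0.97, interval −1.68 to −0.25; limma adjusted p = 0.0767), and Tnfsf10, which encodes TRAIL, at 2.66 and 2.62 against 2.80. Of the 6 death domain receptors, Tnfrsf1a alone passed, where 8.56% of all genes were called higher. Both CAR arrays lay above the third for the other receptors but Tnfrsf10b, where both lay below; 37.4% and 46.8% of all genes lay so. Tnfrsf12a, the injury-induced receptor of TWEAK, was at 4.38 and 5.37 against 5.84. Its CAR arrays were unequal, and the difference of −0.96 did not pass (interval −2.15 to 0.22; limma adjusted p = 0.208), though it did after quantile normalization (−1.52; limma adjusted p = 0.0181).

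The costimulatory pairs of lymphocytes and antigen-presenting cells were low in general. Cd40, the receptor of B cells and macrophages, was at 4.03 and 3.84 against 4.59 (−0.65; limma adjusted p = 0.175; after quantile normalization −0.94 and limma adjusted p = 0.0356), and Cd40lg was at 2.76 and 2.26 against 3.06. Cd27 was at 3.16 and 3.41 against 3.58, and its ligand Cd70 at 2.40 and 2.62 against 2.85. For each of these 4 genes both CAR values lay below the third array, as for 46.8% of all genes, and none passed on the values as deposited.

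Tnfrsf4, the receptor OX40, was at 3.77 on both CAR arrays against 3.56, and its ligand Tnfsf4 at 3.05 and 2.14 against 2.79. Tnfrsf8, the receptor CD30, was at 3.68 and 3.42 against 3.90, and its ligand Tnfsf8 at 2.36 and 2.19 against 2.90. Tnfrsf9, the T cell receptor for Tnfsf9, was at 2.89 and 3.19 against 2.95, and Tnfsf9 at 3.05 and 2.29 against 3.28. Adjusted p in limma's test lay between 0.185 and 0.853 for these 6 genes, and the groups overlapped for Tnfsf4 and Tnfrsf9.

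Members that neighbour each other in the genome did not share one difference. By gene order in RefSeq, 21 of the 42 lie in 8 runs with at most 1 other coding gene between members. In the run of Cd27, Ltbr and Tnfrsf1a the differences were −0.29, 0.70 and 2.60, a range of 2.89. For Tnfrsf1b beside Tnfrsf8 they were 1.55 and −0.35, and for Tnfrsf4 beside Tnfrsf18 0.22 and 1.20. The ligand runs were tighter: Tnfsf9, Cd70 and Tnfsf14 lay within 0.28 of each other, Tnfsf4, Tnfsf18 and Fasl within 0.43, Tnfsf15 and Tnfsf8 within 0.61, and Ltb, Tnf and Lta within 0.78. In the run of Tnfrsf26, Tnfrsf22 and Tnfrsf23 the range was 1.77. Most of those ligands were dim on every array.

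Signalling genes behind the receptors were taken from lists of the pathway. Of 102 measured genes, 15 were called higher in CAR cells (14.7%, against 8.56% of all genes) and 7 lower (6.86%, against 6.42%), with a median difference of 0.24. With only genes of at least median level fitted, 18 of 76 were called higher (23.7%, against 20.7% of all genes fitted). There 8 were called lower (10.5%, against 5.12%). Among 19 adaptors and ubiquitin regulators, 4 rose (21.1%) and 0 fell, with a median of 0.64. Of the 19, 14 had a mean at or above the median level. All genes of that level had a median of 0.37, and 20.7% of them were called higher when fitted alone. Tank, a TRAF-binding adaptor, was 3.75-fold higher, at 5.18 and 5.20 against 3.28 (limma adjusted p = 0.0223). Cyld, the deubiquitinase that restrains NF-kappaB, was 3.0-fold higher, Rnf31, the catalytic subunit of the linear ubiquitin ligase, 2.74-fold, and Traf4 2.60-fold (limma adjusted p from 0.0357 to 0.0389). Tradd, which recruits the signalling complex to Tnfrsf1a, was at 3.49 and 3.66 against 3.49. For 7 of the 15 genes called higher, Tank, Cyld, Rnf31, Tab3, Mlkl, Sod2 and Il7, the array labelled PaS lay below its median, so the size of their folds is uncertain.

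Of 20 subunits, kinases and inhibitors of NF-kappaB, 19 had a mean at or above the median level, where the median over all genes was 0.37. Among the 20, 2 rose (10.0%, against 8.56% of all genes) and 0 fell (against 6.42%), with a median of 0.61. These were Tab3 (3.80-fold, at 5.14 and 4.79 against 3.04; limma adjusted p = 0.0257) and the kinase Map3k7 (2.40-fold, at 6.60 and 6.47 against 5.27; limma adjusted p = 0.0452), which act together below the receptor complex. Map3k7 was no longer called after quantile normalization (0.68; limma adjusted p = 0.113) or with an intensity trend (limma adjusted p = 0.0593). Nfkbid, an atypical inhibitor of NF-kappaB, was called lower after centring, after quantile normalization, with a robust prior and among genes of at least median level (limma adjusted p from 0.00621 to 0.0426). The feedback inhibitor genes Nfkbia and Tnfaip3 did not pass: Nfkbia was at 6.56 and 7.52 against 6.88, with the third array between the CAR arrays, and Tnfaip3 at 5.09 and 5.63 against 5.07. Of 6 genes of ligand and receptor shedding, Adam17, the protease that releases TNF and its receptors, was 3.17-fold higher at 6.10 and 6.23 against 4.50 (limma adjusted p = 0.0278), and the other 5 did not pass. Of 12 death receptor effectors 1 rose (8.33%, against 8.56% of all genes) and 2 fell (16.7%, against 6.42%). Mlkl, the executor of necroptosis, was 3.77-fold higher (limma adjusted p = 0.0257), while Xiap and Mcl1, which block apoptosis, were 2.30-fold and 2.36-fold lower (limma adjusted p = 0.0484 and 0.0460). Both calls were lost with an intensity trend in eBayes (limma adjusted p = 0.0596 and 0.0601). Mlkl, at 4.16 and 4.50 against 2.41, was too dim to be fitted among genes of at least median level. Other blockers of cell death in the list leaned the opposite way to Xiap and Mcl1 without passing. Bcl2 read 5.39 and 5.39 against 4.37 (limma adjusted p = 0.068; 0.0466 after centring). Cflar read 5.87 and 6.52 against 5.08, and Bcl2l1 4.46 and 4.21 against 4.18 (limma adjusted p = 0.103 and 0.747).

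**Figure D4:**
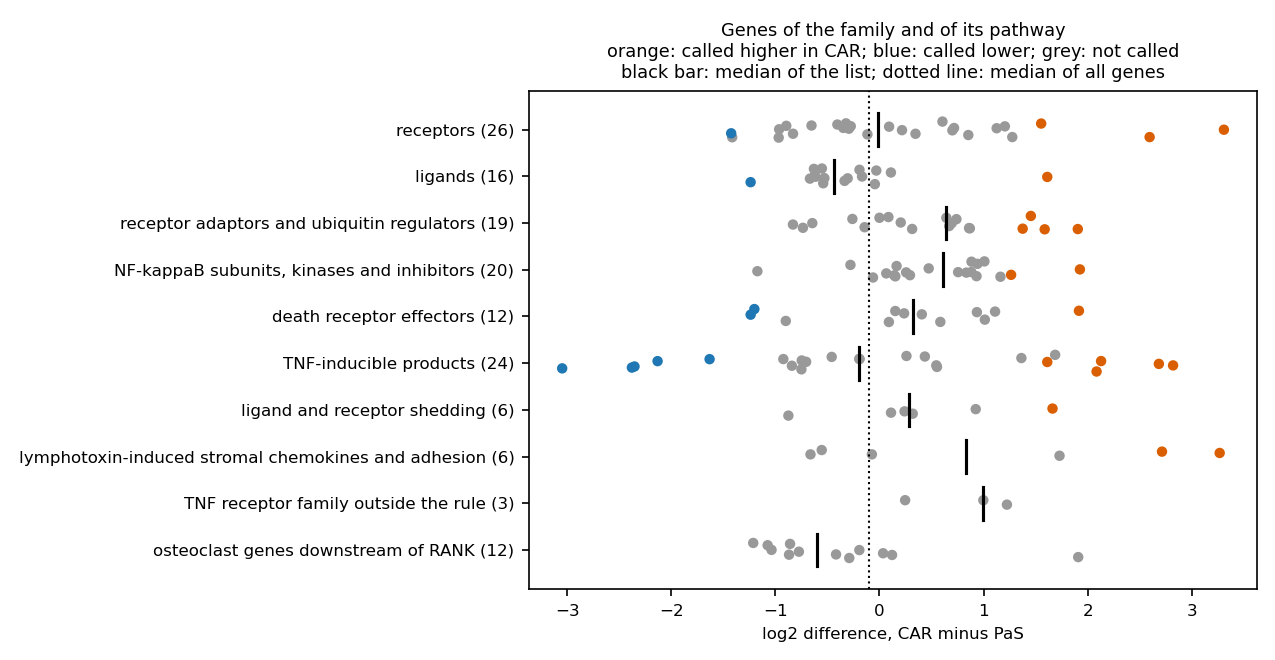
Log2 difference, CAR minus the array labelled PaS (horizontal axis), of each measured gene of the receptors, the ligands and the 8 pathway lists; colours mark genes past the adjusted threshold, black bars the list medians, and the dotted line the median of all genes, −0.10. The TNF-inducible list spread widest, from −3.05 to 2.82.

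The 24 measured products that TNF can induce split, with 5 higher and 5 lower in CAR cells (20.8% each way, against 8.56% and 6.42% of all genes) and a median of −0.19. Higher were Vcam1, an adhesion molecule for blood cells (10.14 and 10.46 against 7.48; 7.06-fold), the chemokine Cxcl10 (6.43-fold), the transcription factor Irf1 (4.37-fold), the mitochondrial enzyme Sod2 (4.24-fold) and the chemokine Ccl7 (3.06-fold). Lower were Cxcl2 (4.22 and 4.04 against 7.18; 8.27-fold), Mmp9 (5.20-fold), Lcn2 (5.11-fold), the endothelial selectin Sele (4.38-fold) and Tnfaip6 (3.10-fold). Their limma adjusted p lay between 0.0116 and 0.0404. Vcam1 also stands in the list of CAR and leptin receptor-positive stroma, of which 10 of 10 genes were higher in CAR cells. Mmp9, Lcn2 and Cxcl2 are also made by neutrophils and Lcn2 stands in the neutrophil list too, of which 11 of 13 genes were lower in CAR cells; the part of those cells in the 5 lower values was not tested. Of 6 stromal genes tied to lymphotoxin, Cxcl12 and Il7, a lymphoid growth factor at 6.34 and 6.31 against 3.61 (6.56-fold; limma adjusted p = 0.0129), were higher; Cxcl12 is the gene that marks the CAR sort. Ccl19 was at 6.92 and 7.91 against 5.69 and did not pass (limma adjusted p = 0.0656; 0.0256 after centring), while Cxcl13, at 3.27 and 3.60 against 3.51, had groups that overlapped. Outside the symbols used here, the related receptor genes Ngfr and Nradd read 4.07 and 4.26 against 3.16 and 4.72 and 4.50 against 3.39 (limma adjusted p = 0.0750 and 0.0506), and Relt 3.28 and 3.43 against 3.11. Ngfr and Nradd passed after quantile normalization (limma adjusted p = 0.0146 and 0.0137).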

How the data were processed

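Total RNA of cells sorted by flow cytometry was amplified to biotinylated cDNA and hybridised to 1 Affymetrix array per sample. The values deposited by the authors are intensities on a linear scale, made with Affymetrix Expression Console and RMA according to the submitters' processing notes. RMA as a method corrects background, normalizes quantiles and summarises probes. The deposited values do not have matched quantiles, however: the 5th percentile was 2.79 and 2.45 for the CAR samples and 4.14 for PaS. The main fit used these values as deposited. The sources used here name no versions and no genome build. Over 35556 probe sets the median was 11.9 and 11.3 for the CAR samples and 12.8 for PaS. Values were put on a log2 scale, adding no pseudocount.

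Of the probe sets, 21789 carried 1 gene symbol, 1621 several (not named) and 12146 none; 21698 matched the current gene table by gene identifier. Each gene was represented by its brightest probe set (mean log2 of all arrays), which left 19938 genes. CAR and PaS were compared with limma 3.58.1 in R 4.3.3 (lmFit, eBayes, two-sided, Benjamini-Hochberg adjustment over all genes, threshold 0.05). With 2 arrays against 1 there is 1 residual degree of freedom, and the variance was moderated toward a prior (4.2 degrees of freedom, SD 0.253 on the log2 scale). The PaS sample is thus taken to vary as the CAR samples do. Precision is limited by how few arrays there are. The spread behind the p-values is that between the 2 CAR arrays, moderated toward the prior, and no spread among PaS samples was measured. SEs and 95% intervals are limma's. Fitting was tested on simulated data.

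All 42 members are reported, with full statistics for those called and for the partners of called ligands and receptors. Of the other pathway genes, up to 4 called genes of each list with the largest difference are named, and of the markers the genes that define the sorts and the B lymphoid pair with the largest difference, with others added for their role: Dpt, Thy1, Cd34, Prrx1, Nfkbid, Tradd, Nfkbia, Tnfaip3, Edaradd, Ctsk, Atp6v0d2, Ccl19, Cxcl13, Ngfr, Nradd, Relt, Irf1, Sod2, Ccl7, Sele, Lcn2 and Tnfaip6, chosen after their values were seen. Bcl2, Cflar and Bcl2l1 were likewise added for their role after their values were seen. The members and lists were chosen with earlier results of these data known. Alternatives were centring each array, quantile normalization, averaging a gene's probe sets, dropping genes under the median level, eBayes with an intensity trend or with a robust prior, 16 added before the log, and leaving out each CAR array.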

Additional observations from a re-analysis of the deposited data

How the results depend on the processing

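No paired analysis was possible because the groups share fewer than 2 replicate numbers. Leaving out the PaS array would leave no comparison. With 16 added before the log, 0 members were called in either direction (14 at an unadjusted p under 0.05 in limma), 2 instead of 6 were at least 2-fold higher in both CAR arrays and 0 instead of 2 lower, and 0 of the 102 pathway genes were called higher or lower instead of 15 and 7 (45 at an unadjusted p under 0.05); limma's smallest adjusted p over all genes was 0.0539 there. After quantile normalization 5 instead of 2 members were called lower and 4 instead of 2 were at least 2-fold lower, 17 instead of 7 pathway genes were called lower (16.7%; of all genes 14.2% instead of 6.42%), and 6 members changed sign, none of them called: Tnfsf10 to 0.32, Tnfsf4 to 0.31, Tnfsf18 to 0.27, Tnfrsf11b to 0.20, Cd70 to 0.15 and Ltb to 0.14. With only genes of at least median level fitted, 0 members were called lower or at least 2-fold lower, because Tnfrsf26 and Tnfsf15 were not fitted, and 6 of 16 were called higher (37.5%, against 20.7% of the 9969 genes fitted). Genes of at least median level were picked by the mean of 2 CAR arrays and 1 array labelled PaS, which favours genes high in CAR cells. With 1 CAR array left out, 6 to 8 members were at least 2-fold higher and 3 to 4 lower (8 and 4 without CAR array 1), by value without a test. Other causes were not tested. Centring changed the sign of no member and lost no call of a member. The mean of all probe sets and both other forms of eBayes also lost no call of a member. They could not change a sign, because each member has 1 probe set and those forms of eBayes leave the differences as they are. Among pathway genes the intensity trend lost Map3k7, Xiap and Mcl1 and quantile normalization lost Map3k7. The low signal of most ligands limits what can be said of them.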
